A study of Mus musculus with 24 samples.

Results

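Crygn, Ces3b, Stk32c, Man1a and Ppp1r13l are 5 of the 19751 genes with a symbol on an array of mouse hippocampal RNA, and they were chosen by the size of 1 contrast in these same data: the difference between the effect of a paternal methyl donor-rich diet (MD) in F1 offspring and the effect of the grandpaternal diet in F2 offspring. They were taken from outside the genes of motile cilia, 2 of which were called in the same contrast. The array measured them with 6 probes of 39429, 1 probe each for Crygn, Ces3b, Stk32c and Ppp1r13l and 2 for Man1a. Since the contrast chose the genes, their diet differences in F1, in F2 and between the generations are given below as values with a standard error and without a test. For the 5 genes, tests are used only for measures that the choice did not use. Where their calls among all probes in the choosing contrasts are listed, they are a description.

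The study asked whether a paternal diet changes gene expression in offspring and grand-offspring. C57BL/6J males ate a control diet (CD) or the same chow enriched in methyl donors for 6 weeks before they were mated with 129S6/SvEv females. The enriched chow carried added methionine (7.5 g), choline (15 g), betaine (15 g), folic acid (15 mg), vitamin B12 (1.5 mg) and zinc (150 mg) per kg. F1 males of either line were then mated with F1 females of CD fathers to obtain the F2 mice. All offspring ate control chow themselves, per the labels, and descended from C57BL/6J and 129S6/SvEv mice. The F1 hybrids are labelled congenic and were genetically alike, whereas the F2 hybrids are labelled mixed and came from an intercross in which the parental alleles segregate. Each of the 4 groups (CD and MD in either generation) was measured on 6 arrays, and each array held RNA pooled from 4 mice. The labels give an age of 4 weeks, while the methods describe adult mice. Litter relations between pools are not stated, so that p-values measure the spread between pools. The F2 labels add a code, lh or rh, to 3 arrays of each diet, and its meaning is not given.

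The 24 arrays lay on 6 slides, 3 per generation, every slide holding 2 CD and 2 MD arrays, and each generation was scanned on a day of its own. Generation, genetic make-up, slide set and scan day therefore cannot be told apart, whereas diet was balanced over slides. Median intensity per array ranged from 167 to 318 in F1 and from 148 to 262 in F2. In F1 it differed by diet, from 251 to 318 in CD and from 167 to 262 in MD. Between 33926 and 37013 spots per F1 array and between 27383 and 34661 per F2 array were well above background. MD F1 replicate 6, CD F2 replicate 6 and MD F2 replicate 3 stood apart from the other arrays, with mean correlations to their own generation of 0.986, 0.973 and 0.970 against 0.993 to 0.995 (F1) and 0.984 to 0.986 (F2) for the rest. No 2 arrays held identical values. The difference between the mean log2 signal of Y-linked genes and that of Xist lay between -0.72 and 1.69 in all 12 F1 pools. It differed by diet in F1, where the CD pools lay between -0.71 and -0.26. In MD F1, replicate 1 lay at -0.72 and the other pools between 0.14 and 1.69. The methods describe balanced sex ratios. In F2 the measure lay between 4.88 and 7.33 in 9 pools and between -7.11 and -6.91 in the other 3, of which 2 were CD F2 and 1 was MD F2. No F2 pool lay within the F1 range, so the pools of the generations also differed in this measure.

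Pyramidal cell markers of the hippocampus were bright on all arrays, with Wfs1 and Mpped1 at mean log2 signals of 14.36 and 14.41 and 7 of 7 measured markers well above background on all 24. Of 6 granule cell markers of the dentate gyrus, 5 were well above background on all 24 arrays. The signal of choroid plexus, the tissue that makes cerebrospinal fluid in the adjoining ventricle, was also present and uneven: the mean log2 signal of 9 marker genes ranged from 7.42 to 10.56 in CD F1, 7.58 to 11.76 in MD F1, 7.22 to 12.83 in CD F2 and 7.22 to 12.02 in MD F2. In bulk RNA, fewer cells of a type and less RNA per cell cannot be told apart.

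The 5 genes belong to unrelated families. Crygn encodes a gamma-crystallin of the group of proteins best known from the eye lens. Ces3b encodes a carboxylesterase, an enzyme class that cleaves ester bonds in lipids and drugs and is best known from liver. Stk32c encodes a serine/threonine kinase of the AGC group, Man1a encodes a mannosidase of the Golgi that trims mannose from N-linked glycans, and Ppp1r13l encodes iASPP, an inhibitor of the tumour suppressor p53. Methyl donors feed the synthesis of S-adenosylmethionine, the donor for methylation of cytosine in DNA, which in mammals falls mostly on CG pairs.

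The stretches upstream of the transcription start sites are given for that reason, since CG pairs are the positions at which DNA methylation could be read. DNA methylation was not analysed here. RefSeq promoters on build GRCm38.p6 were found for 5 of 5 genes, with 2 start sites for Stk32c. The 250 bases before the start held 31 CG pairs in Man1a, 22 and 18 at the 2 starts of Stk32c, 14 in Crygn, 14 in Ppp1r13l and 2 in Ces3b. Over all 32851 promoters of that length the median was 6, and 92.1% held at least 1, the motif CG being the same on both strands. As many pairs as in Man1a or more were found in 5.2% of promoters, and as few as in Ces3b or fewer in 29.0%. Nothing is drawn from these counts about methylation of the sites. The gene with the most pairs, the gene with the fewest and Crygn, which had the largest generation difference relative to its error, are printed 5′ to 3′ on the strand of the gene, with CG pairs in capitals: Man1a at chr10:54075738-54075987 (minus strand), Ces3b at chr8:105083505-105083754 (plus strand) and Crygn at chr5:24757849-24758098 (minus strand).
Man1a: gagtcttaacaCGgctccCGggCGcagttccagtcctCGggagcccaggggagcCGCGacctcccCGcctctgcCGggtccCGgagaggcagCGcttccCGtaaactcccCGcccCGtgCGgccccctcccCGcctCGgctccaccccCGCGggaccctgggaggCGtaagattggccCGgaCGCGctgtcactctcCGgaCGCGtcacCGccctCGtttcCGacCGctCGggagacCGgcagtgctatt
Ces3b: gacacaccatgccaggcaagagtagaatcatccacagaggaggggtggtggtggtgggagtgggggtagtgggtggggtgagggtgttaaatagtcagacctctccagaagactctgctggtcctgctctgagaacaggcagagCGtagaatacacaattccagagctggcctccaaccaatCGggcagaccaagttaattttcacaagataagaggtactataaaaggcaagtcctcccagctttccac
Crygn: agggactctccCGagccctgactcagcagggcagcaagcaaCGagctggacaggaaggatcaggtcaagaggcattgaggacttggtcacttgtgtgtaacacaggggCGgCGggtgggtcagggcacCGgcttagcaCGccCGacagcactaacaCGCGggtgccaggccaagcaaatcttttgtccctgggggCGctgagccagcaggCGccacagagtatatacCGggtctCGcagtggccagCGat

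Crygn was higher in MD than in CD mice in F1 and lower in F2. Its log2 signal had a lowest, median and highest value of 5.81, 6.08 and 6.29 in CD F1 and of 6.25, 6.50 and 6.82 in MD F1. In F2 these were 7.23, 7.41 and 7.73 in CD and 6.50, 6.76 and 6.98 in MD. In F1 2 of 6 MD arrays lay within the CD range and the other 4 above it, and all 6 MD F2 arrays lay below all CD F2 arrays. The group means were 6.09 ± 0.180 in CD F1, 6.51 ± 0.246 in MD F1, 7.44 ± 0.169 in CD F2 and 6.75 ± 0.156 in MD F2 (SD, n = 6 each). The diet difference was 0.41 (SE 0.112) in F1, a 1.33-fold higher signal, and -0.69 (SE 0.112) in F2, a 1.62-fold lower signal. Without scaling between arrays the F1 difference was 0.011, beside a median of -0.28 for all probes. The difference between the generations was 1.11 (SE 0.158), which ranked 1 among all probes by p. The probe was well above background on all 24 arrays.

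Ces3b showed the opposite order, lower in MD F1 and higher in MD F2, and it was not well above background on every array. The lowest, median and highest log2 signals were 4.46, 4.85 and 5.35 in CD F1 and 3.64, 3.99 and 4.12 in MD F1. In F2 they were 4.16, 4.57 and 5.07 in CD and 4.48, 5.16 and 5.50 in MD. No MD F1 array reached the CD F1 range, while in F2 the ranges overlapped and 4 of 6 MD arrays lay above every CD array. Before scaling, the intensity was between 9.11 and 59.8 on every array. The probe was well above background on 6 of 6 arrays in CD F1 and on 5 of 6 in each of the other 3 groups. The arrays not well above background were the 3 that stood apart, of which MD F1 replicate 6 (3.64) was the lowest and MD F2 replicate 3 (5.50) the highest of its group. The diet difference was -0.93 (SE 0.165) in F1, a 1.91-fold lower signal, and 0.52 (SE 0.165) in F2. The difference between the generations was -1.45 (SE 0.233, rank 3), and -1.28 (SE 0.237) without the 3 arrays that stood apart. With normexp background correction, which here adds 50 to each signal, it was -0.33 (SE 0.0625).

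Stk32c was likewise lower in MD F1 and higher in MD F2. The lowest, median and highest log2 signals were 8.53, 8.69 and 8.94 in CD F1 and 7.95, 8.22 and 8.38 in MD F1. In F2 they were 8.12, 8.19 and 8.41 in CD and 8.09, 9.05 and 9.18 in MD. All 6 MD F1 arrays lay below all CD F1 arrays, and 5 of 6 MD F2 arrays lay above all CD F2 arrays. The exception was MD F2 replicate 2, at 8.09, which lay below every CD F2 array, while the other 5 lay between 8.92 and 9.18. The diet difference was -0.52 (SE 0.136) in F1, a 1.43-fold lower signal, and 0.67 (SE 0.136) in F2, a 1.59-fold higher signal. The difference between the generations was -1.18 (SE 0.193, rank 4). Without MD F2 replicate 2 it was -1.34, the lowest value found on leaving out 1 array.

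Man1a is the only gene of the 5 with a second probe, and the 2 probes, both matched to the same RefSeq transcript, differed. By the leading probe, the one with the smaller p in the contrast between the generations, the signal was lower in MD F1 and slightly higher in MD F2. Its lowest, median and highest log2 signals were 8.17, 8.30 and 8.50 in CD F1, 7.51, 7.74 and 8.17 in MD F1, 6.97, 7.12 and 7.37 in CD F2 and 7.18, 7.39 and 7.47 in MD F2. The F1 groups did not overlap, although the highest MD array (8.174) and the lowest CD array (8.175) nearly touched, and in F2 4 of 6 MD arrays lay above every CD array. The diet difference was -0.55 (SE 0.101) in F1 and 0.19 (SE 0.101) in F2, which makes a difference between the generations of -0.74 (SE 0.142, rank 10).

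By the second probe, Man1a was lower in MD mice in both generations. The lowest, median and highest log2 signals were 6.47, 6.74 and 7.03 in CD F1, 5.13, 6.35 and 6.70 in MD F1, 7.37, 7.51 and 7.62 in CD F2 and 6.96, 7.32 and 7.57 in MD F2. In each generation 5 of 6 MD arrays lay below every CD array. The diet difference was -0.56 (SE 0.176) in F1, close to that of the leading probe, and -0.22 (SE 0.176) in F2, of the opposite sign. The F1 value rested in part on MD F1 replicate 6, without which it was -0.34. The difference between the generations was -0.34 (SE 0.249), ranked 9362 of 39423, and was -0.13 without that array. The reversal between generations was therefore not seen by both probes of this gene.

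Array by array the 2 probes of Man1a showed no correlation that passed a permutation test. After the group means were removed, their correlation over 24 arrays was r = 0.23 (two-sided permutation test within groups, p = 0.441) and Spearman's rho was -0.0070 (permutation p = 0.976). This was 1 pair, so that adjustment over pairs changes nothing. Without the 2 arrays farthest from the median, MD F1 replicates 4 and 6, r was -0.10, so that the positive value rests on those arrays. The correlation was 0.42 over the 12 F1 arrays and -0.39 over the 12 F2 arrays. With slide means removed too it was 0.30 (permutation p = 0.289), with scaling to the 75th percentile 0.47 (permutation p = 0.22; 0.0050 without the 2 farthest arrays), and without the 3 arrays that stood apart -0.15 (permutation p = 0.510). The level in F2 against F1 also went opposite ways by the 2 probes, as given below.

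Ppp1r13l was higher in MD F1 and lower in MD F2. The lowest, median and highest log2 signals were 9.66, 9.75 and 9.85 in CD F1 and 9.94, 9.99 and 10.22 in MD F1. In F2 they were 9.66, 9.78 and 10.02 in CD and 9.43, 9.58 and 9.68 in MD. All 6 MD F1 arrays lay above all CD F1 arrays, and 5 of 6 MD F2 arrays lay below all CD F2 arrays. The diet difference was 0.27 (SE 0.0663) in F1, a 1.21-fold higher signal, and -0.22 (SE 0.0663) in F2. Without scaling between arrays the F1 difference was -0.0041, beside a median of -0.28 for all probes. The difference between the generations was 0.50 (SE 0.0937, rank 9). Thus Crygn and Ppp1r13l shared one direction, and Ces3b, Stk32c and the leading probe of Man1a the other.

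**Figure D1:**
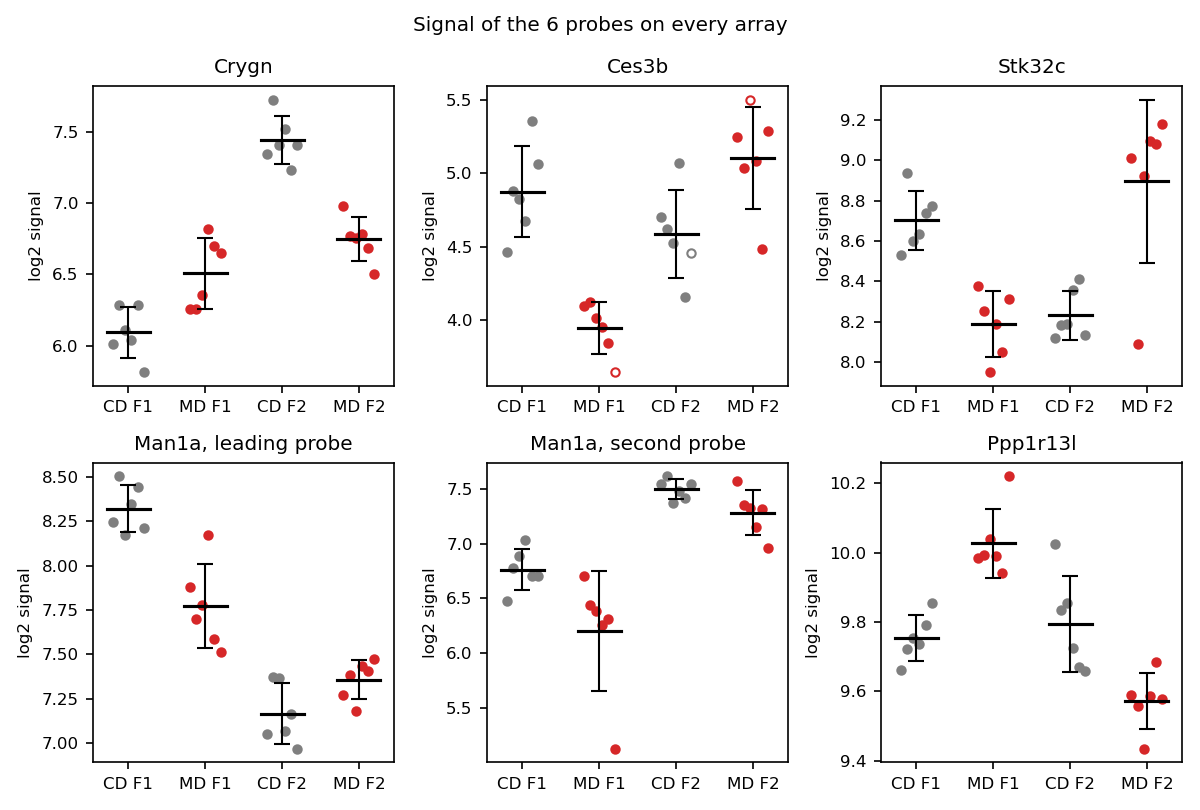
Log2 signal of each probe on every array, with points for single arrays (open where not well above background), horizontal lines for group means and bars for the SD (n = 6). MD F2 replicate 2 lies alone at 8.09 for Stk32c, and MD F1 replicate 6 lies alone at 5.13 for the second probe of Man1a.

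**Figure D2:**
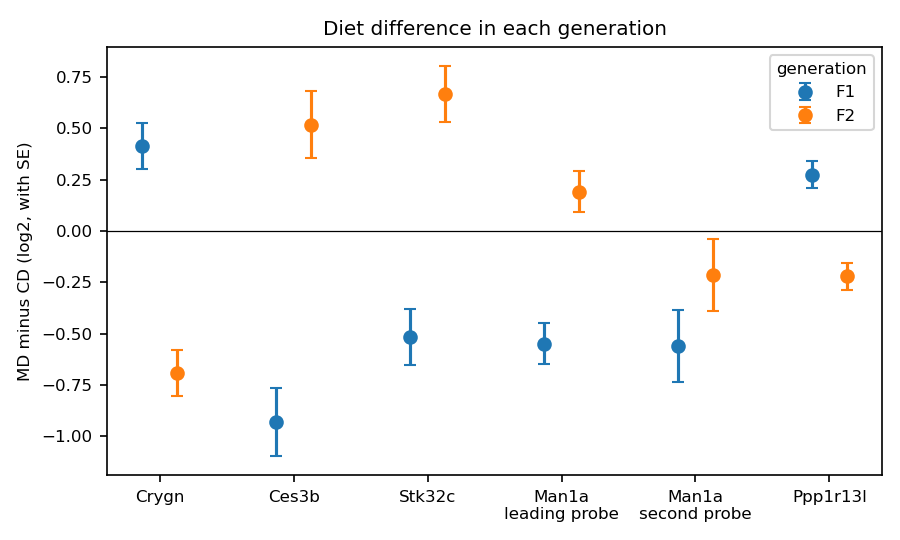
Diet difference (MD minus CD, log2, with SE) in F1 and F2 for each probe. The differences have opposite signs in the 2 generations for the leading probes of all 5 genes and the same sign for the second probe of Man1a.

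Over all probes, 5 of 39423 (0.0127%) passed an FDR under 0.1 in limma for the difference between the generations, and 3 of these belonged to the 5 genes described here: Crygn, Ces3b and Stk32c. The other 2 were Cfap161 and Ccdc153, genes of cilia. The calls of the 3 members ended under some settings. Without the 3 arrays that stood apart the limma FDR was 0.1005 for Ces3b and Stk32c alike, and without scaling between arrays it was 0.697 for Crygn, 0.285 for Ces3b and 0.222 for Stk32c. With the choroid plexus level as a term, described below, it was 0.175 for Ces3b and 0.194 for Stk32c, and with the ependyma level 0.149 for Crygn, 0.181 for Ces3b and 0.247 for Stk32c. On leaving out 1 array, Crygn and Ces3b were called in 24 of 24 fits and Stk32c in 23, the exception being the fit without CD F1 replicate 2. These fits share most arrays with the data that chose the genes, so the counts lend the choice no support. The nearest members on either side of that threshold were Stk32c (-1.18) inside and Ppp1r13l (0.50) outside, with Man1a (-0.74) just beyond it. The diet difference within F1 was called for 70 probes (0.178%) and that within F2 for 17 (0.0431%). These counts were unstable: on leaving out 1 array of the generation the first ranged from 0 (without CD F1 replicate 4) to 422 (without MD F1 replicate 1) and the second from 0 (without MD F2 replicate 5) to 119 (without MD F2 replicate 2). Of the leading probes, those of Ces3b and Man1a were among the 70 and that of Crygn among the 17. With the replicate block the F1 calls of Ces3b (limma FDR 0.125) and Man1a (limma FDR 0.154) were lost, and that of Ces3b also with normexp correction. Each held in 7 of 12 fits without 1 array, and was lost without CD F1 replicate 2, 3 or 4 or MD F1 replicate 2 or 5. The F2 call of Crygn held in 11 of 12 such fits and was lost without MD F2 replicate 5, without scaling and with either marker level as a term. MD and CD arrays did not overlap in F1 for 1.84% of the probes measured on all arrays and in F2 for 0.335%, whereas 4 of the 5 leading probes did not overlap in F1 and 1 of 5 in F2. These shares, like the calls of the members above, follow from how the genes were chosen and nothing is read from them.

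Within slides the diet differences kept their signs throughout. The slides split the same values that chose the genes, so nothing is read from these signs. Where the MD and CD arrays of a generation did not overlap, the same sign on every slide was certain. Crygn was higher in MD on 3 of 3 F1 slides, by 0.22 to 0.51, and lower on 3 of 3 F2 slides, by values from -0.84 to -0.55. Ces3b differed by -1.29 to -0.55 on the F1 slides and by 0.19 to 0.84 on the F2 slides. For Stk32c the F1 slides gave -0.71 to -0.30 and the F2 slides 0.40 to 0.83. Each slide difference is a mean of 2 MD arrays minus a mean of 2 CD arrays, so the spread between slides is that of small numbers. The leading probe of Man1a ranged from -0.83 to -0.27 in F1 and from 0.02 to 0.29 in F2, and the second probe from -0.99 to -0.27 and from -0.27 to -0.16. Ppp1r13l differed by 0.16 to 0.37 in F1 and by -0.26 to -0.18 in F2. The smallest of these differences was that of the leading probe of Man1a on slide 5.

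**Figure D3:**
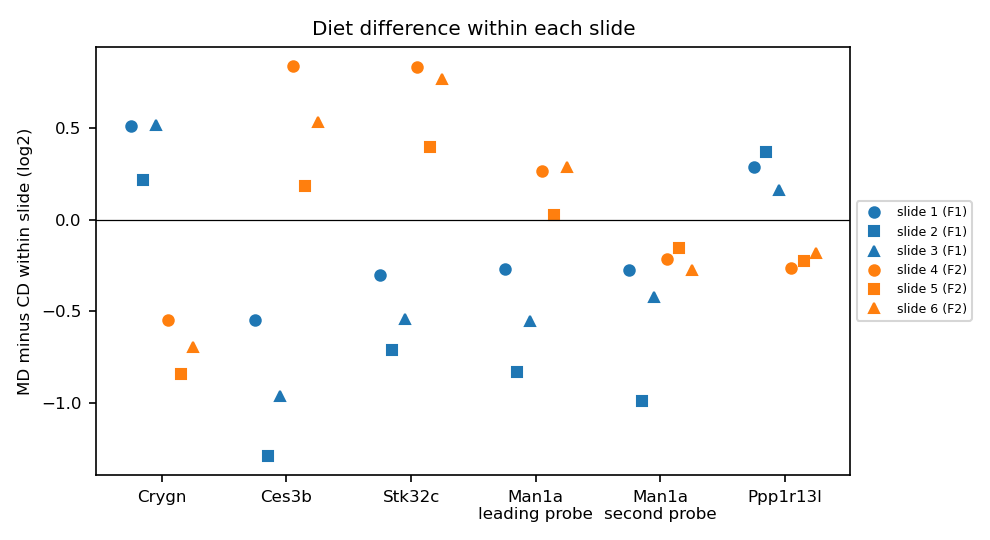
Mean of the 2 MD arrays minus mean of the 2 CD arrays on each slide (log2), for each probe, with F1 slides 1 to 3 and F2 slides 4 to 6. All 3 slides of a generation fall on the same side of 0 for every probe. The values are those that chose the genes, split by slide.

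**Figure D4:**
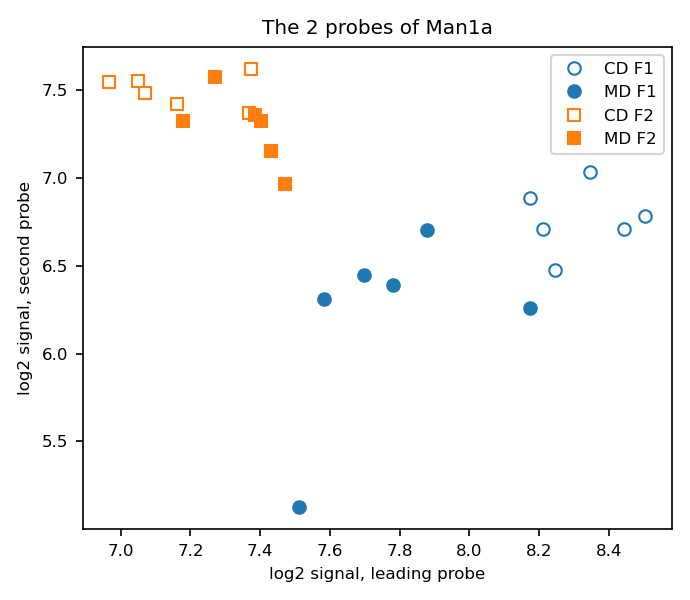
Log2 signal of the second against the leading probe of Man1a on the 24 arrays, by group. F2 arrays lie lower on the leading probe and higher on the second, and MD F1 replicate 6 has the lowest second-probe signal (5.13).

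The diet effect averaged over both generations was not used in the choice, and none of the 6 probes passed the test. Estimates were -0.14 (SE 0.0789, FDR 0.556) for Crygn, -0.21 (SE 0.116, FDR 0.555) for Ces3b, 0.07 (SE 0.0965, FDR 0.824) for Stk32c and 0.03 (SE 0.0469, FDR 0.882) for Ppp1r13l in limma. For Man1a they were -0.18 (SE 0.0711, FDR 0.362) by the leading probe and -0.39 (SE 0.124, FDR 0.266) by the second. The called share over all probes was 0.0482% (19 probes), and at an unadjusted p under 0.05 in limma there were 2 of the 6 probes, both of Man1a, beside 10.5% of all probes. Without 1 array the count over all probes ranged from 0 (without MD F2 replicate 4) to 49 (without MD F2 replicate 2), and the leading probes were called under none of the 39 other settings. A shared diet effect of the size of these standard errors was not detectable with 24 arrays.

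Signals differed between F1 and F2 for 4 of the 5 leading probes, but so did 70.2% of all probes (27675), and generation cannot be told apart from genetic make-up, slide set and scan day. The pools of the generations also differed in the Y-linked and Xist measure. Crygn was higher in F2 by 0.79 (SE 0.0789, limma FDR 6.73e-09), while Ppp1r13l was lower, with a difference of -0.21 (SE 0.0469, FDR 0.000495 in limma). Without scaling between arrays these differences were 0.43 and -0.52, and the authors' processed table gave 0.56 and -0.37. All were called. For Stk32c the difference was 0.12 (SE 0.0965, limma FDR 0.287), and -0.20 without scaling between arrays. For Ces3b it was 0.44 (SE 0.116, limma FDR 0.00224) and was -0.095 without scaling between arrays and 0.024 in the authors' processed table. Without scaling the median of all probes was itself -0.36, and in the authors' table -0.25, so these values carry a shift of all probes. The 2 probes of Man1a went opposite ways, at -0.79 (SE 0.0711, limma FDR 1.48e-09) and 0.90 (SE 0.124, limma FDR 1.03e-06). The order of group means followed from both contrasts: CD F2 was highest and CD F1 lowest for Crygn, MD F2 highest and MD F1 lowest for Ces3b and Stk32c, and MD F1 highest and MD F2 lowest for Ppp1r13l. Neighbours in these orders such as MD F1 (6.51) and MD F2 (6.75) of Crygn, CD F1 (4.88) and MD F2 (5.11) of Ces3b, or CD F1 (9.75) and CD F2 (9.79) of Ppp1r13l lay within about 1 SD of each other.

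The code in the F2 labels was balanced over the diets, and it gave no calls in these genes. None of the 6 probes passed an FDR under 0.1 for rh against lh (limma FDR from 0.697 to 0.978), and 0 of 6 had an unadjusted p under 0.05 in limma. Over all probes 0.00761% (3) were called and 7.77% had an unadjusted p under 0.05. Stk32c had the largest estimate, 0.29 (SE 0.150). Markers of the ventricle differed more: the median for rh against lh was -3.48 in choroid plexus genes and -0.38 in genes of ependyma and motile cilia. In both lists 0 were called.

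The median diet differences of markers of the ventricle lining had the same signs as those of Crygn and Ppp1r13l, and the opposite signs to those of Ces3b, Stk32c and the leading probe of Man1a. For 8 genes of ependyma and motile cilia, all well above background on 24 arrays, the median diet difference was 0.44 in F1 and -0.63 in F2, beside 0.01 and 0.02 for all probes, and 1 of the 8 (Ccdc153) was called in limma for the difference between the generations. Hydin, a protein of motile cilia, differed by -0.05 in F1 and -0.08 in F2, and Dnah6, a dynein heavy chain, by 0.04 and -0.23, while the other 6 were between 0.34 and 0.60 in F1 and between -0.89 and -0.59 in F2. Their mean log2 signal ranged from 9.07 to 9.25 in CD F1, 9.23 to 9.86 in MD F1, 9.09 to 10.11 in CD F2 and 8.92 to 9.53 in MD F2, so that the lowest values of CD F2 overlapped MD F2. For the 9 choroid plexus genes the median differences were 0.55 in F1 and -2.32 in F2, 0 of 9 were called, and 6 of 9 were well above background on all arrays. Their standard errors were large in either generation, from 0.61 (Kl) to 1.58 (Kcne2). Within F2 the same 9 genes differed more by the code, by -5.01 to -1.77 for rh against lh (median -3.48), also without a call. With the ependyma level as a further term, the generation difference was 1.03 (SE 0.223) for Crygn, -1.35 (SE 0.329) for Ces3b, 0.46 (SE 0.132) for Ppp1r13l and -0.91 (SE 0.195) for Man1a. For Stk32c it shrank from -1.18 to -0.74 (SE 0.235). With the choroid plexus level as the term, the values were 1.12, -1.44, 0.47, -0.74 and, for Stk32c, -1.02 (SE 0.187). Both terms were chosen after the marker values were seen. The ependyma level includes Ccdc153, which was called in the contrast that chose the genes. That term therefore overlaps with the contrast, and with it the SE of Crygn rose from 0.158 to 0.223.

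Once group means were removed, the correlation of Crygn with the ependyma level was r = 0.11 over 24 arrays, and that of Stk32c, the strongest of the leading probes, was r = -0.53. For Ces3b the value was -0.09, for Ppp1r13l 0.11 and for the leading probe of Man1a 0.28. Among the leading probes, only for Stk32c (-0.63 in F1, -0.50 in F2) did the generations share a sign. They also did so for the second probe of Man1a (0.40 in F1, 0.13 in F2). The leading probe of Man1a gave -0.13 in F1 and 0.64 in F2, and Ppp1r13l -0.44 and 0.34. These are descriptions over arrays that share slides. With the measure of Y-linked genes against Xist as a further term, the generation differences were 1.13 for Crygn, -1.44 for Ces3b, -1.20 for Stk32c, -0.76 for Man1a and 0.50 for Ppp1r13l, each within 0.03 of the value without it. The term had a slope common to both generations, and the measure ranged from -0.72 to 1.69 in F1 and from -7.11 to 7.33 in F2. That slope was therefore set mostly by F2 pools, and these values cannot show what the measure carries in F1, where it differed by diet.

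Beyond the groups, the 5 genes showed weak correlations with each other. Between the leading probes, the correlations of deviations from the group means over 24 arrays ranged from -0.09 to 0.23 in 10 pairs, the highest being that of Crygn with Man1a.

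Other genes with the most similar pattern over the 24 arrays, after the mean of each generation was removed, were sought among 17954 probes well above background on all arrays. The likeness includes the diet difference by which the 5 genes were chosen, so it is a description. Nearest to Crygn were Krt15, a keratin (r = 0.85), Ccdc153, a gene of ciliated cells (r = 0.85), and Stoml3, a stomatin-like membrane protein (r = 0.79). Their diet differences were 0.47, 0.48 and 0.33 in F1 and -0.41, -0.64 and -0.56 in F2. Krt15 was also nearest to Ppp1r13l (r = 0.78), followed by Adgra3, an adhesion receptor (r = 0.76), and Stk33, a kinase (r = 0.74). Crygn, named for the lens, and Ppp1r13l, the p53 inhibitor, thus shared the keratin as their nearest pattern.

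For the leading probe of Man1a the nearest were Mat2a (r = 0.83), whose product makes S-adenosylmethionine from methionine, Gcg, the glucagon precursor (r = 0.82), and Lrfn5, a synaptic adhesion protein (r = 0.82). Mat2a differed by -0.39 (SE 0.0717) in F1 and by -0.01 (SE 0.0717) in F2. The nearest to Stk32c were Megf9 (r = 0.78), Raly, an RNA-binding protein (r = 0.77), and Tpst2, which sulfates tyrosines (r = 0.75). Those to Ces3b were Morn4 (r = 0.78), Dnttip1 (r = 0.75) and Klk9, a kallikrein protease (r = 0.74). Morn4 and Dnttip1 changed far less than Ces3b itself, by -0.14 each in F1 and by 0.05 and 0.07 in F2.

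Relatives of the 5 genes, each taken by the probe with its highest mean signal, gave 1 call outside the contrast of F2 against F1. In that contrast 61 of 89 were called in limma, beside 70.2% of all probes. Of 89 genes in 5 lists, 0 were called in limma for the difference between the generations (11 at an unadjusted p under 0.05), 0 in F1 (8), 0 for the average diet effect (12), 0 for the code (5) and 1 in F2 (9). Over all 39423 probes, 3238, 4226, 4132, 3065 and 3436 had an unadjusted p under 0.05 in the same order. That gene was Cryba4, a beta-crystallin of the lens, which was higher in MD F2 by 0.58 (limma FDR 0.0443), the direction opposite to Crygn. Of 22 crystallin genes measured, 15 were well above background on all arrays, and their median diet difference was 0.07 in F1 and 0.09 in F2. Those taken by the naming rule, Crym, a thyroid hormone-binding protein, and Cryab, a small heat shock protein, had generation differences of -0.03 and 0.33. Carboxylesterases were near background on some arrays: like Ces3b, which was well above background on 21 arrays, none of the 16 relatives measured (of 18 listed) was so on all 24. Ces2c and Ces5a, named by the rule, passed on 22 arrays each. The closest relative, Ces3a, was well above background on 0 of 24 arrays; it falls outside the naming rule and was picked after its values were seen.

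The 13 kinases related to Stk32c were all well above background on 24 arrays, with a median diet difference of -0.05 in F1 and -0.05 in F2. Akt1 and Pdpk1, kinases of growth factor signalling, had generation differences of 0.06 and -0.12. Stk32a and Stk32b, the 2 genes nearest to Stk32c, were also picked after their values were seen, and had generation differences of 0.18 and -0.13. All 13 lay between -0.21 and 0.18, beside -1.18 for Stk32c.

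Among 19 genes of N-glycan trimming and branching the median diet difference was -0.01 in F1 and -0.03 in F2. Mgat1, which starts complex glycans, and Ganab, a glucosidase of the endoplasmic reticulum, had generation differences of 0.0049 and 0.10, and the 19 ranged from -0.61 to 0.33, beside -0.74 for the leading probe of Man1a. Among 19 genes of the ASPP family and p53 pathway the medians were -0.05 in F1 and 0.04 in F2. Ppp1ca and Ppp1cc, the catalytic phosphatase subunits that ASPP proteins bind, had generation differences of -0.10 and -0.0003. The 19 ranged from -0.82 for Mdm4, an inhibitor of p53, to 0.57 for Trp73, a relative of p53. Both exceeded the 0.50 of Ppp1r13l in size, were not called, and were picked after their values were seen. All 38 genes of these lists were well above background on all arrays.

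**Figure D5:**
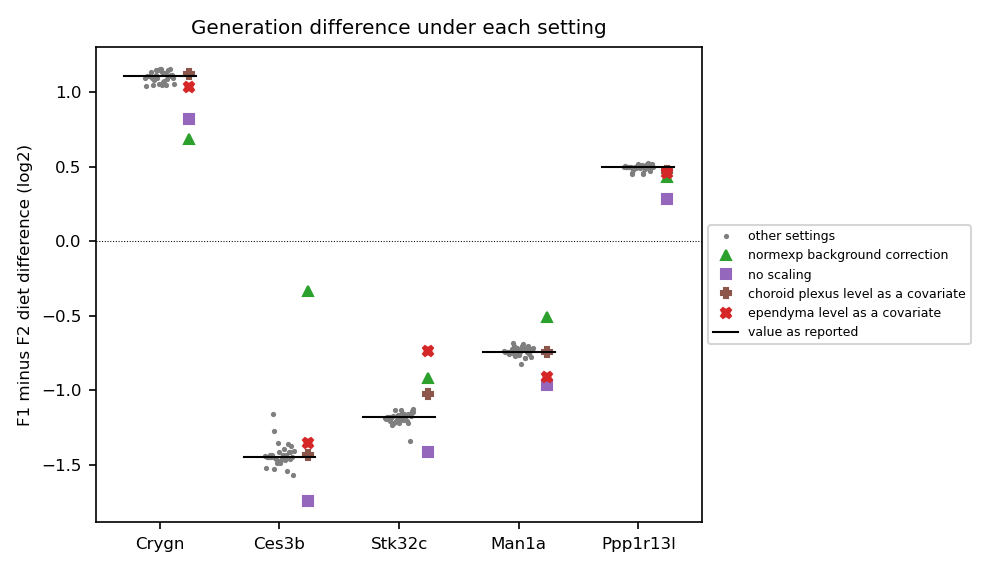
Generation difference (diet effect in F1 minus that in F2, log2) of the 5 leading probes as reported (lines) and under every other processing setting (points). No setting moves a gene across 0, and in proportion the value shrinks most for Ces3b with normexp background correction (-0.33). The genes were chosen on this contrast in the same arrays, so the kept signs lend the choice no support.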

How the data were processed

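Hippocampal RNA was measured on 24 one-color arrays (Agilent, 6 per group), and groups and replicate numbers were taken from the sample labels. The deposited scanner files hold, per the file headers, spot intensities made with Agilent Feature Extraction 10.7.3.1, another version than the methods state. The processed signal used here is background-subtracted, linear and not scaled between arrays. The authors' processed table holds linear intensities quantile-normalized within each generation and served as an alternative. Of 43020 non-control spots, those marked as irregular were left out, repeated spots were averaged per probe on the log2 scale, and the 24 arrays were quantile-normalized together, so that a log2 value is relative to the deposited intensities of the whole set. Probes with values on fewer than 2 arrays of any group were dropped (leaving 39423 of 39429). In limma 3.58.1 (R 4.3.3) a linear model of the 4 group means was used, with calls at an FDR under 0.1 (Benjamini-Hochberg, over all probes). The contrasts were MD against CD in F1 and in F2, their difference (F1 minus F2), their average, F2 against F1, and rh against lh within F2 with the diet group as a term. The fit was tested on simulated data with known changes.

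The 5 genes, the lists of relatives and markers and the arrays that stand apart were chosen with earlier results of these data known. Probes were matched to symbols through their RefSeq accessions (26055 probes). All member probes are reported. From a list of relatives, the genes called in any contrast but that of the generations were named and otherwise up to 2 with the highest signal, and for similar patterns the 3 genes with the highest Pearson's r. The 2 probes of Man1a were compared by 100000 permutations within groups. Replicate numbers did not pair the samples: deviations of same-numbered CD and MD arrays correlated between -0.068 and 0.225 in F1 and between -0.186 and 0.204 in F2. Alternatives covered scaling, background correction, dim probes, irregular spots, slide, replicate number, the Y-linked and Xist measure, the F2 code, array weights and leaving out arrays; the choroid plexus and ependyma levels as terms were added after the data were seen. For the normexp alternative the median spot signal was used in place of the mean signal. Precision is limited by the number of arrays. Promoter sequences came from RefSeq (GRCm38.p6), and array coordinates were not used.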

Additional observations from a re-analysis of the deposited data

Results flagged for a closer look

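Outlying arrays were sought for 6 probes in 4 groups of 6 arrays, by the gap of the highest or lowest array to its neighbour over the range of the group. Of 24 sets 3 held such an array, where chance gives about 1 in 20 (1.2). MD F2 replicate 2 had a Stk32c signal of 8.09 beside 8.92 to 9.18 on the other 5 arrays. MD F1 replicate 6 had a signal of 5.13 on the second probe of Man1a beside 6.26 to 6.70, and of 10.22 for Ppp1r13l beside 9.94 to 10.04. Without these arrays the F1 diet difference of Ppp1r13l was 0.24, that of the second Man1a probe -0.34, and the F2 difference of Stk32c 0.83. MD F1 replicate 6 is 1 of the 3 arrays that stood apart, and MD F2 replicate 2 is not.

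The diet effect differed between F1 and F2 by a limma contrast for Crygn (1.11), Ces3b (-1.45) and Stk32c (-1.18), as log2 differences of F1 minus F2. These genes were chosen on that contrast, so the values are a description.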

How the results depend on the processing

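Of 1017 values recomputed under other settings, 979 counted as unchanged. For the average diet effect, F2 against F1, the code and the Man1a correlation, that meant staying on the same side of the threshold. For the diet differences and their difference between the generations, it meant moving by less than the spread between arrays. Calls of members lost or gained in those contrasts are therefore not part of this count. The number of probes called was judged by its fold change. The genes were chosen on the generation difference in these same arrays, so a kept sign lends the choice no support. The generation difference of the 5 leading probes kept its sign under all of the settings tried. Without scaling between arrays, where the median of all probes shifts by -0.23 in that contrast and by -0.28 in F1, it was 0.82 for Crygn, -1.74 for Ces3b, -0.97 for Man1a and 0.28 for Ppp1r13l, and the F1 differences were 0.011 for Crygn, -1.30 for Ces3b, -0.83 for Stk32c, -0.88 for Man1a and -0.0041 for Ppp1r13l. The average diet effects of Stk32c (-0.12) and Ppp1r13l (-0.15) then changed sign, uncalled in either setting (all probes: -0.17). With normexp correction it was 0.69 for Crygn, -0.33 for Ces3b, -0.92 for Stk32c and -0.51 for Man1a, and the diet differences were -0.19 (F1) and 0.14 (F2) for Ces3b and -0.46 (F2) for Crygn. With the ependyma level as a term, Stk32c was -0.74 between the generations and 0.39 in F2.

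The F2 against F1 difference of Ces3b was -0.095 without scaling (all probes: -0.36), and was no longer called with normexp (0.029) or in the authors' table (0.024, all probes: -0.25); for Stk32c it was called with normexp (0.15), and ranged from 0.090 to 0.20 on leaving out 1 array, the latter, called, without MD F2 replicate 2. The probes called between the generations numbered 0 without scaling, 9 with normexp, 18 without dim probes, 59 with the F2 code, 546 with array weights, 1 with the choroid plexus level, 2 with the ependyma level and 3 to 42 on leaving out 1 array (42 without CD F2 replicate 6, 40 without MD F2 replicate 2). With the replicate block 27 were called, and Crygn was 1.11 (SE 0.167). With array weights 2394 were called in F1, 300 in F2 and 749 for the average effect. With the replicate block these were 7, 46 and 0, and with the slide block 17, 6 and 0. Without scaling 769 were called in F1 and 1 in F2. For the F2 code 0 to 17 were called on leaving out 1 array, 5217 with the choroid plexus and 4120 with the ependyma level. The causes were not tested.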
